A study of Mus musculus with 2 samples.

Results

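Of 20722 protein-coding genes on mouse chromosomes 1 to 19, 520 were accessible at a downstream annotated start while the most upstream start was closed. A gene was taken when neither library had a DNase-seq peak within 500 bp of its most upstream protein-coding start, and both libraries had a peak within 500 bp of a protein-coding start lying more than 2 kb downstream. Only 6421 genes have such a downstream start and could meet the rule, so the 520 made up 8.10% of them. Among the other eligible genes, 941 were open at the upstream start and at a downstream start, 2937 were open at the upstream start with no downstream start open in both libraries, 1760 had no peak at the upstream start and no downstream start open in both libraries, called open at neither from here on, and 263 had a peak at the upstream start in 1 library only. The 520 genes were chosen by the peaks themselves, so peak densities at their starts are given as descriptions and carry no test.

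DNase I cuts DNA that nucleosomes leave exposed, and sequencing the cut sites marks accessible chromatin. Here nuclei came from the gastrocnemius, the main calf muscle, of male B6CASTF1/J mice, F1 hybrids of C57BL/6J and CAST/EiJ, at an age of 4 days. There was 1 group with 2 libraries, biological replicates 1 and 2, and each label speaks of 3 males, so each value is that of pooled animals and of all cell types in the muscle. Both libraries carry the same donor entry. A peak is present when a start is open in enough cells, and a start that is open in few cells cannot be told apart from one that is weakly open in many. Replicate 1 had 94295 peaks and replicate 2 had 123291. Of 10 skeletal muscle marker genes, 10 were open at a protein-coding start in replicate 1 and 9 in replicate 2, and all 5 fibroblast markers were open in both libraries. Endothelial markers were open for 3 of 4 genes in both libraries and Schwann cell markers for 2 of 4, whereas none of 4 hepatocyte markers was open. Of the 4 markers each for macrophages and keratinocytes, none was open in replicate 1 and 1 was open in replicate 2.

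Many mammalian genes have alternative promoters, which lie at different first exons and are used in different tissues or stages. Where the promoters are separated by coding exons, the choice between them also changes the beginning of the protein. The most upstream annotated start of a gene is a matter of annotation and need not be the promoter that most tissues use. Promoters of broadly used genes usually lie in CpG islands, stretches in which the CG dinucleotide has kept close to the frequency expected from the base composition. Promoters of tissue-restricted genes more often lack them.

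The sequences below show the base composition of open and closed starts of the same gene. They are the 100 bases before each start, 5′ to 3′ on the strand of the gene, from the GRCm38.p6 assembly, with every CG dinucleotide in capitals. Each of the 7 genes comes from a different gene list described further on, taken in order of density within its list, and some genes, among them those whose windows touch an untranslated region, were passed over. For each gene the open start is given above its closed upstream start.
Tpm3, open start, chr3:90079440-90079539, plus strand: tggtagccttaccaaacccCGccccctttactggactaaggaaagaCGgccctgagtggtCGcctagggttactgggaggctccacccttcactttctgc
Tpm3, closed upstream start, chr3:90072549-90072648, plus strand: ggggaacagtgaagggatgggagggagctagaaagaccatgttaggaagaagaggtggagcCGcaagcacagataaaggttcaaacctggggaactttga
Colq, open start, chr14:31558141-31558240, minus strand: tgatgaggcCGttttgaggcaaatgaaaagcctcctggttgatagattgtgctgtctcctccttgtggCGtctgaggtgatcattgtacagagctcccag
Colq, closed upstream start, chr14:31591344-31591443, minus strand: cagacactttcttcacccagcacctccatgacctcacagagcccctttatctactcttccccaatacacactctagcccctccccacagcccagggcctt
Macf1, open start, chr4:123412229-123412328, minus strand: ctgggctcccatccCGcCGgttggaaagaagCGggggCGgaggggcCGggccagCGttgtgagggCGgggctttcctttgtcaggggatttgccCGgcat
Macf1, closed upstream start, chr4:123684361-123684460, minus strand: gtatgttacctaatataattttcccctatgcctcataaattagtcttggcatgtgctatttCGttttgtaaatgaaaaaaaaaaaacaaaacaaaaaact
Rara, open start, chr11:98937598-98937697, plus strand: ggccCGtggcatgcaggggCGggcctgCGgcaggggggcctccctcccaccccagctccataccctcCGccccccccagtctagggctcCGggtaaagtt
Rara, closed upstream start, chr11:98927718-98927817, plus strand: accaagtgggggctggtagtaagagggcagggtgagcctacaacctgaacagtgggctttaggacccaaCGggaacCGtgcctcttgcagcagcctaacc
Lifr, open start, chr15:7129459-7129558, plus strand: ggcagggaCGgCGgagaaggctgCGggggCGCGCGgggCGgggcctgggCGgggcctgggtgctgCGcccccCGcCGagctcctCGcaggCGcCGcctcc
Lifr, closed upstream start, chr15:7090514-7090613, plus strand: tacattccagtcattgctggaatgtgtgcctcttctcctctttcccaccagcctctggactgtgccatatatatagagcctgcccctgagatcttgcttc
Hk1, open start, chr10:62340543-62340642, minus strand: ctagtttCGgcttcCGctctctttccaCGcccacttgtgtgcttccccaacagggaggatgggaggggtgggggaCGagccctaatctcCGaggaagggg
Hk1, closed upstream start, chr10:62379909-62380008, minus strand: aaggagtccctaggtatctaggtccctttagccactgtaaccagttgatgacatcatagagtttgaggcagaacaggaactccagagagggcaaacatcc
Ptprd, open start, chr4:76449981-76450080, minus strand: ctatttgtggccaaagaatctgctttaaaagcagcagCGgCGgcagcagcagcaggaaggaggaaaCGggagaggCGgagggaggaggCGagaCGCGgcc
Ptprd, closed upstream start, chr4:76594300-76594399, minus strand: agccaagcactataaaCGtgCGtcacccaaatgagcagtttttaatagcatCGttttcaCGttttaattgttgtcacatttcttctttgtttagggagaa

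These 7 genes illustrate the contrast and are no test of it. Lifr, the receptor subunit for leukaemia inhibitory factor, had 14 at its open start and 0 at its closed upstream start. Macf1, a giant linker between actin and microtubules, had 8 at the open start and 1 at the closed start. The smallest contrasts were in Tpm3, a tropomyosin gene, with 3 at the open start against 1, and in Colq, whose product anchors acetylcholinesterase at the neuromuscular junction, with 2 against 0. Ptprd, a receptor tyrosine phosphatase of neurons, still had 4 at its closed start against 7 at the open one.

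Over all 520 genes the difference in composition was broad. A start was called CpG-rich when the 500 bp on either side had a CpG observed/expected ratio of at least 0.5 and a GC content of at least 50%. By this measure 348 open starts (66.9%) and 21 closed upstream starts (4.04%) were CpG-rich, beside 49.8% of the 52065 protein-coding starts of these chromosomes. The median ratio was 0.66 at open starts and 0.22 at closed upstream starts, and the median GC content was 59.3% and 47.4% in the same order. The ratio was higher at the open start in 467 genes (89.8%), with a median difference of 0.41. Both starts were CpG-rich in 12 genes, neither in 163, the open one alone in 336 (64.6%) and the upstream one alone in 9. Sequence was not used to choose the genes.

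**Figure D1:**
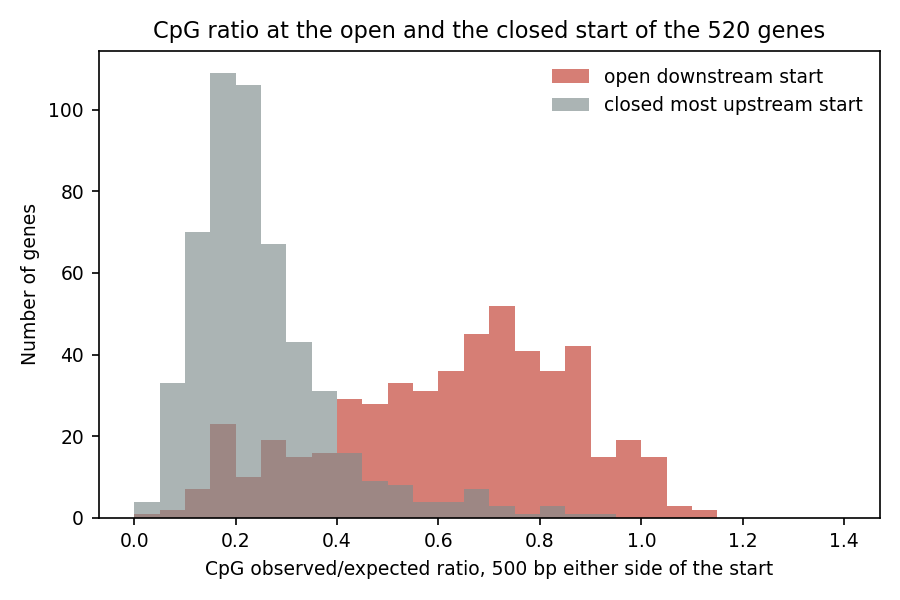
Histogram of the CpG observed/expected ratio in the 500 bp on either side of the open downstream start (red) and of the closed most upstream start (grey) of the 520 genes, with the number of genes on the vertical axis. The open starts centre on a median of 0.66 and the closed starts on 0.22, and the histograms overlap.

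In the other classes, upstream starts that were open were mostly CpG-rich and upstream starts that were closed were mostly not. The upstream start was CpG-rich in 4.04% of the 520 genes, against 78.6% of genes open at both starts, 85.3% of genes open upstream without a downstream start open in both libraries and 2.95% of genes open at neither. The downstream open start was CpG-rich in 66.9% of the 520 genes, against 48.2% of genes open at both starts. Of the 263 genes with an upstream peak in 1 library only, 99 had a downstream start open in both libraries. That start was CpG-rich in 63.6% of the 99, close to the share of the 520. These shares compare genes, not samples, and were not tested.

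**Figure D2:**
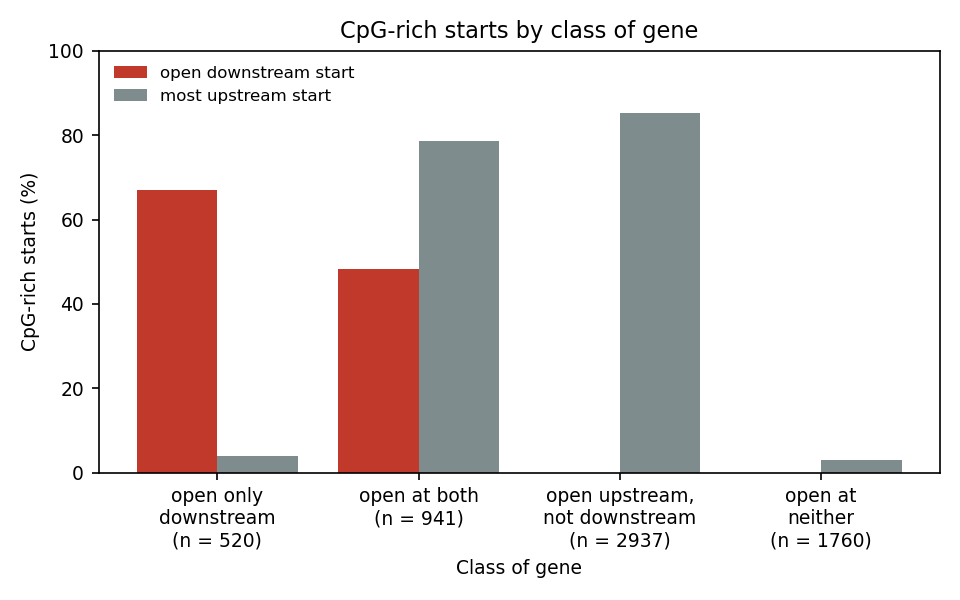
Percentage of starts that were CpG-rich, for the open downstream start (red, drawn for the 2 classes that have one) and the most upstream start (grey), by class of gene with the number of genes under each bar pair. Not downstream and neither mean that no downstream start was open in both libraries. Genes open only downstream pair a red bar of 66.9% with a grey bar of 4.04%, while genes open at both starts have 48.2% and 78.6%.

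Peaks at the open starts were among the denser ones of each library. The authors' cut density is given in a unit scaled within each library, so peaks were ranked from 0 to 100 among all peaks of their own library. Where several downstream starts were open, the one with the highest mean rank was taken as the open start. The median rank was 85.4 in replicate 1 and 88.0 in replicate 2, at median densities of 2.94 and 1.90. Densities ran between 0.236 and 20.4 in replicate 1 and between 0.190 and 10.8 in replicate 2. Ranks over 90 were reached by 202 genes in replicate 1 and 239 in replicate 2, and ranks under 25 were seen in 23 and 10 genes. The downstream open starts of genes open at both starts had median ranks of 78.9 and 83.3.

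The rule required a peak of both libraries near the same start, and the strongest peaks of the libraries overlapped at 501 of 520 open starts. The 2 ranks of a gene differed by a median of 2.65 points and by at most 41.0. Spearman's rho of the densities across the 520 genes was 0.98, a description over genes that share the same 2 libraries. The authors' shorter, stricter peak lists still held a peak of both libraries at 453 open starts (87.1%).

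**Figure D3:**
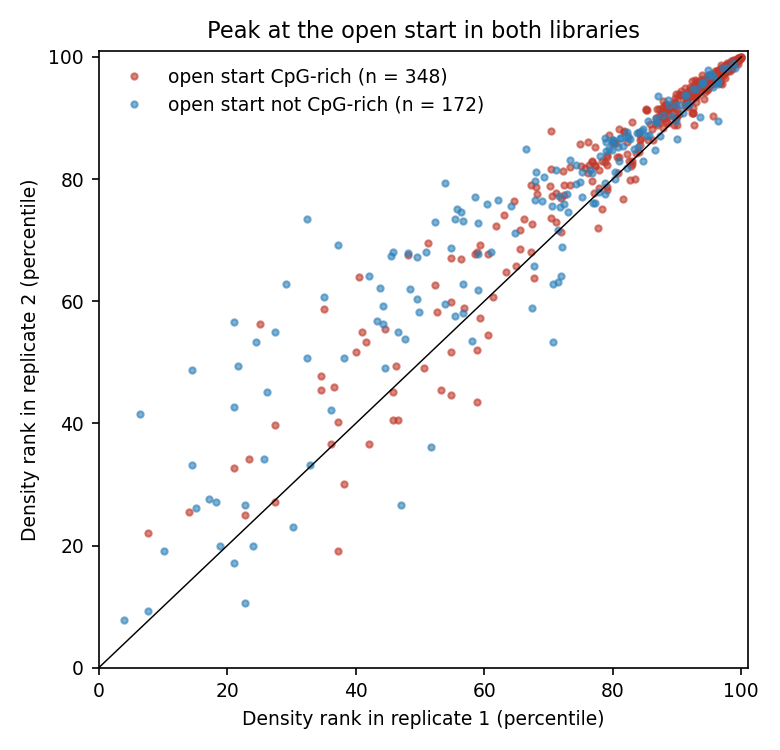
Density rank of the peak at the open start in replicate 1 (horizontal) and replicate 2 (vertical), in percentiles of each library, 1 point per gene, red where the open start was CpG-rich and blue where it was not, with the line of equal rank. The 348 red points have median ranks of 90.1 and 92.0, and the 172 blue points have 72.0 and 77.4.

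CpG-rich open starts carried the denser peaks. Their median ranks were 90.1 in replicate 1 and 92.0 in replicate 2, against 72.0 and 77.4 at the 172 open starts that were not CpG-rich. Among the 220 genes with a mean rank over 90, 191 open starts (86.8%) were CpG-rich. Among the 16 genes with a mean rank of at most 25, it was 3 (18.8%). Between these ends the share was not even, with 57.1% at ranks over 25 to 50, 43.4% over 50 to 75 and 60.8% over 75 to 90.

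Footprints, short protected stretches inside accessible DNA that were called by the authors and not used to choose the genes, were present at nearly all open starts. A footprint lay within 500 bp of the open start in 500 genes (96.2%) in replicate 1 and in 517 (99.4%) in replicate 2, and in both libraries in 498 (95.8%). The median number was 4 per open start in replicate 1 and 6 in replicate 2. Kat6b, which encodes a histone acetyltransferase, had the most, with 21 in replicate 1 and 23 in replicate 2. Downstream open starts of genes open at both starts had a footprint in both libraries in 93.0%. Footprints are called inside accessible DNA, so their presence is not independent of the peak, and all entries carry the same constant, so none could be ranked.

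At the closed upstream starts the rule left little room for other marks of accessibility, which follow the same signal as the peaks. A stretch with a false discovery rate (FDR) below 0.05 touched the 500 bp window of 9 upstream starts in replicate 1 and 18 in replicate 2, or 22 (4.23%) in either library and 5 in both. A footprint lay there in 1 gene in replicate 1 and in 2 genes in replicate 2. The nearest peak to the closed upstream start was a median of 4417 bp away in replicate 1 and 3989 bp in replicate 2. It lay within 2 kb in 94 and 114 genes, and in 30 genes (5.77%) another protein-coding start within 2 kb of the upstream one was open in both libraries. For those 30 genes the closed state applies to the most upstream start and not to the whole upstream promoter region.

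The distance between the closed upstream start and the open start had a median of 10221 bp, with the middle 50% of genes between 4186 and 27978 bp. It was over 2 to 5 kb in 152 genes, over 5 to 10 kb in 104, over 10 to 50 kb in 187, over 50 to 100 kb in 42 and over 100 kb in 35. Pde4d, a cAMP phosphodiesterase, had its open start 1248929 bp downstream, Rbfox1, an RNA-binding splicing regulator, 1184491 bp, and Nrxn3, a presynaptic adhesion protein, 1017979 bp. Asic2, an acid-sensing ion channel, followed with 815136 bp and Zfhx3, a homeobox zinc finger factor, with 772000 bp. Their ranks were far apart, from 84.3 in replicate 1 and 86.7 in replicate 2 in Pde4d to 32.9 and 33.2 in Rbfox1.

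The open start lay inside the upstream transcript in most genes. It fell in an intron of it in 443 genes, most often in intron 1 (271 genes, 52.1%), in an exon in 67, and beyond its end in 10. In 493 genes the start codon was annotated for transcripts of both starts. In 208 of these (42.2%) the transcripts of the open start began their coding sequence elsewhere, 154 of them farther downstream and 54 farther upstream, and in 285 they shared a start codon. Genes open at both starts differed in the start codon in 57.6%.

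The annotation marked the open start as principal in more genes than the closed one. APPRIS marks the principal isoform of a gene. A principal transcript began within 500 bp of the open start in 362 genes (69.6%) and of the closed upstream start in 216 (41.5%). It did so at the open start alone in 244 genes, at the closed start alone in 98, at both in 118 and at neither in 60. Transcripts of the best support level began at the open start in 75.4% and at the closed one in 39.8%. For comparison, the upstream start carried a principal transcript in 92.1% of genes open upstream without a downstream start open in both libraries. The share was 83.6% for genes open at neither, 62.7% for genes open at both and 68.8% for an upstream peak in 1 library only. A principal transcript began at the downstream open start in 45.9% of genes open at both starts. It did so in 56.6% of the 99 genes with an upstream peak in 1 library and a downstream start open in both. Over all annotated starts, 405 of the 520 genes (77.9%) had some principal start open in both libraries, and 106 (20.4%) had no peak of either library at any principal start. At 25 open starts (4.81%) every transcript was marked as lacking its true beginning, so the annotated start there may be an internal truncation.

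Genes with more annotated starts had more chances to meet the rule. The share that met it was 4.65% of eligible genes with 2 starts, 6.47% with 3, 9.38% with 4 or 5, 13.5% with 6 to 9 and 15.0% with 10 or more. In 210 of the 520 genes a single downstream start was open in both libraries. Tcf4, a basic helix-loop-helix factor, had the most, with 27 of 44 annotated starts open downstream.

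The 20 densest open starts were all CpG-rich. Glo1, which encodes glyoxalase I and detoxifies methylglyoxal, led with densities of 20.4 in replicate 1 and 10.8 in replicate 2, ranks of 99.98 and 99.95. Its open start, at position 30612659 of chromosome 17 in mm10, lay 14212 bp downstream in exon 2 of the upstream transcript and kept the same start codon. Next came Usp37, a deubiquitinase, Ruvbl2, an ATPase of chromatin remodelling complexes, Pef1, a calcium-binding EF-hand protein, and Xrcc6, the Ku70 subunit of DNA end joining. At Usp37, Ruvbl2, Xrcc6 and Trmt13, a tRNA methyltransferase, the open start also lay within 500 bp of a start of another gene, namely Cnot9, Gys1, Desi1 and Sass6. The same held for Dgcr2 with Gm20518, Ccnt1 with 9330020H09Rik and Oser1 with 2900093K20Rik. Peaks at these 7 starts cannot be assigned to either gene. Over the 520 genes, 76 open starts (14.6%) lay that close to a start of another gene, 36 (6.92%) to one of a protein-coding gene, against 3.61% of genes open at both starts.

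Ccnt1 encodes the cyclin of the elongation factor P-TEFb, Nfyc a subunit of the CCAAT-binding factor NF-Y, Rbpj the DNA-binding effector of Notch signalling, Stag1 a cohesin subunit, Actl6a a subunit of SWI/SNF-type remodellers and Pias1 a SUMO ligase. Rbpj was open 124216 bp downstream of its first annotated start, with densities of 11.9 in replicate 1 and 6.78 in replicate 2. At Rbpj, Stag1, Actl6a and Pias1 a principal transcript began at the open start and none at the closed one. Cmtr2, a cap methyltransferase, Tollip, an adaptor of Toll-like receptor signalling, Tdrd7, a Tudor domain protein, and Dcun1d4, a neddylation factor, had the same arrangement. Kat6b, Dgcr2, Iffo2 and Oser1 completed the 20.

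Of 31 eligible sarcomere and Z-disc genes, 5 met the rule (16.1%), namely Tpm3, Smtn, Tnnt1, Myl2 and Neb. Of 17 eligible genes of the triad, membrane excitability and synapse, only Colq did (5.88%), and of 39 membrane cytoskeleton genes 6 did (15.4%). These shares stand beside 8.10% of all eligible genes, and the eligible genes of these 3 lists had a median of 5, 4 and 7 annotated starts. Of all eligible genes, 9.38% with 4 or 5 starts and 13.5% with 6 to 9 starts met the rule. In 9 of the 12 genes from these 3 lists the open start was not CpG-rich, against 172 of all 520.

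In Tpm3, the long muscle isoforms of tropomyosin begin at the upstream promoter and the short cytoskeletal isoforms at an internal one. The internal start, 6891 bp downstream in intron 2, was open with densities of 5.91 in replicate 1 and 3.48 in replicate 2, ranks of 93.9 and 94.5. The start of the long, principal isoform, 2 bp from the most upstream one, was closed in both libraries. All 5 annotated internal starts between 6891 and 7793 bp were open, and the coding sequence began 6995 bp farther downstream than that of the upstream transcript.

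In the other sarcomere genes the peaks were of middle density. Tnnt1, the slow skeletal troponin T, was open 2014 bp downstream at ranks of 64.8 in replicate 1 and 71.1 in replicate 2, while its principal start was closed. Myl2, the regulatory light chain of slow and cardiac myosin, had no peak at any of 8 starts in the first 846 bp. Its only annotated start with a peak within 500 bp lay 2962 bp downstream in exon 4, at ranks of 56.6 and 58.0. The transcript of that start lacks its true beginning. Neb, the thin-filament ruler nebulin, was open at 1 of 8 starts, 43340 bp downstream, at ranks of 53.9 and 59.6, and its principal start at 39676 bp had no peak. Smtn, the actin-binding smoothelin, differed, because its principal start 1320 bp downstream was open at ranks of 91.5 and 93.5 and falls short of the 2 kb of the rule. Its far open start at 12675 bp had ranks of 78.8 and 77.5.

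Colq was open only at its most downstream start, 33203 bp from the upstream one, with densities of 1.05 in replicate 1 and 0.550 in replicate 2. Its principal start at 13960 bp had no peak in either library. Ranks of 58.0 and 53.6 put it below the median of the 520 genes in both libraries.

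Among membrane cytoskeleton genes, Macf1 had 12 annotated starts, of which 4 downstream ones were open in both libraries. The densest lay 272132 bp downstream in intron 57, with densities of 6.86 in replicate 1 and 3.99 in replicate 2, and another CpG-rich start at 19608 bp had 2.43 and 1.73. The principal start was the closed upstream one. Sgcd, the delta-sarcoglycan of the dystrophin complex, has only 2 annotated starts, 199443 bp apart, and the downstream, principal one was open at ranks of 82.4 and 87.0. Sspn, which encodes sarcospan of the same complex, was open at its principal start 2481 bp downstream, with densities of 3.19 and 2.22. Sgca, the alpha-sarcoglycan, was closed at the principal start that is its most upstream one. It was open at another principal start 2864 bp downstream at ranks of 73.4 and 76.0, and more densely in exon 7, at 81.3 and 86.8. The Sgca transcript that begins in exon 7 lacks its true beginning. Sorbs3, the focal adhesion adaptor vinexin, was open 5967 bp downstream at ranks of 90.8 and 93.8 with its principal start closed, and Syne1, the nuclear envelope protein nesprin-1, 356775 bp downstream at 79.4 and 84.9. Syne1 was also open at its principal start only 804 bp from the upstream one, at ranks of 49.2 and 45.9.

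**Figure D4:**
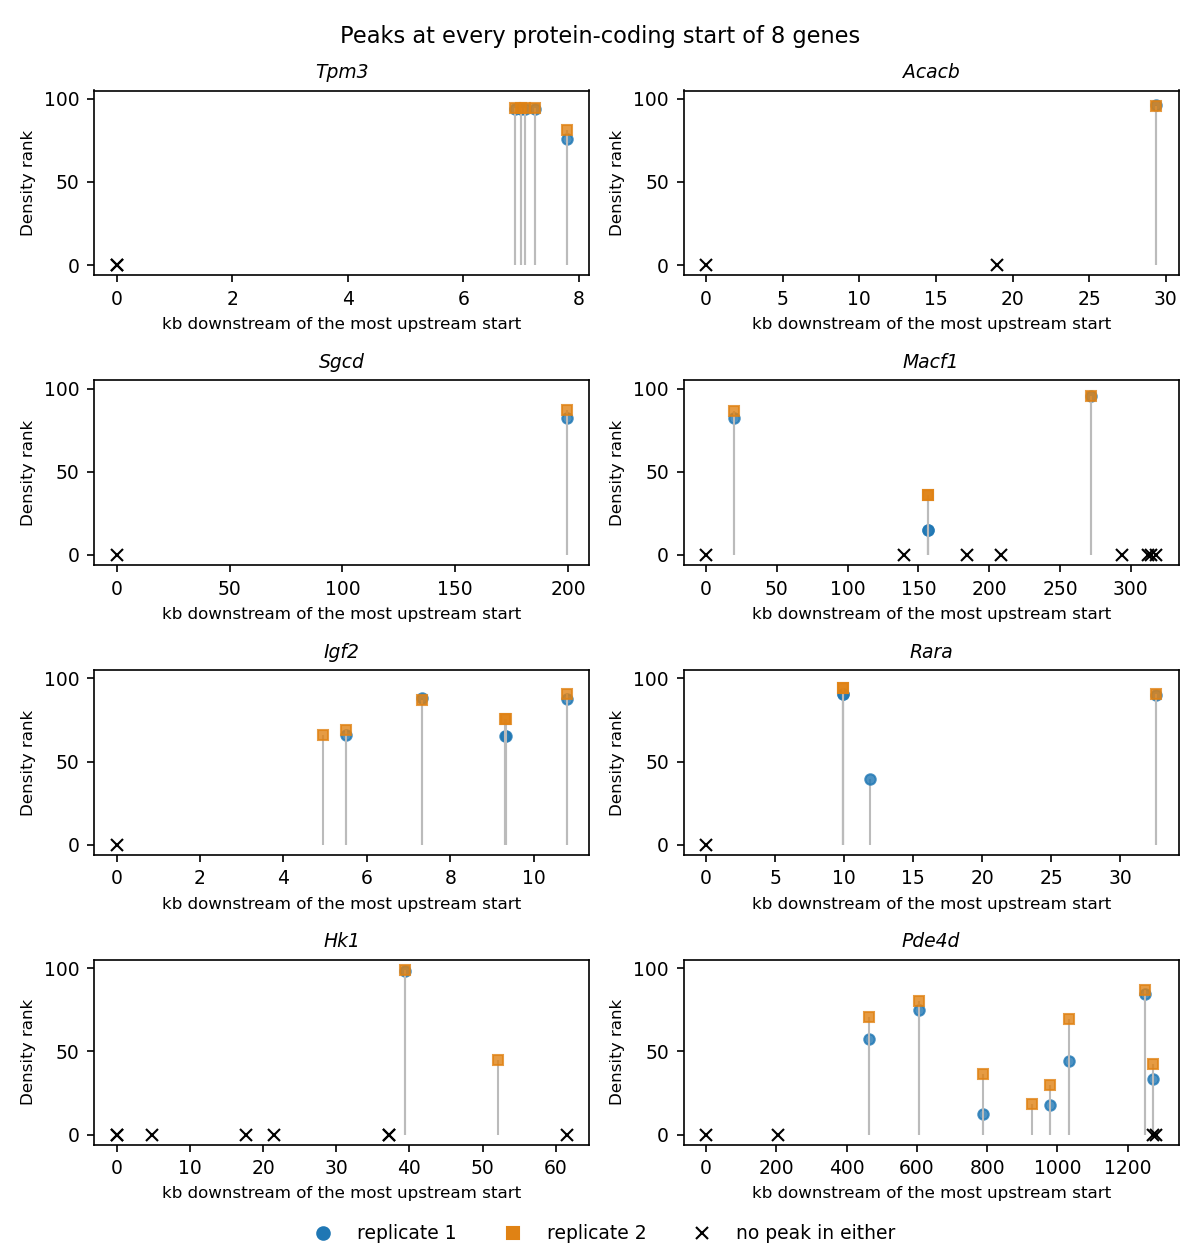
Every annotated protein-coding start of 8 genes, by distance in kb from the most upstream start (horizontal, own scale for each gene) and density rank of the strongest peak within 500 bp (vertical, percentile within the library), with circles for replicate 1, squares for replicate 2 and crosses for starts without a peak in either library. The upstream start at 0 kb is a cross in all 8 genes, Hk1 is open in both libraries at 1 of 10 starts, and Tpm3 at all 5 internal starts.

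Metabolic genes met the rule in 6 of 28 eligible cases (21.4%, beside 8.10% of all). The eligible ones had a median of 5 annotated starts, and 9.38% of all eligible genes with 4 or 5 starts met the rule. Hk1, hexokinase 1, had 10 annotated starts, of which 1 was open in both libraries, 39366 bp downstream, with densities of 9.80 in replicate 1 and 6.25 in replicate 2. Its ranks of 98.2 and 98.7 gave the highest mean rank of the listed genes. Both principal starts, at 0 and 21546 bp, were closed, and the open start lay within 500 bp of the antisense gene Hk1os. Acacb, the acetyl-CoA carboxylase that controls fatty acid oxidation at mitochondria, was open at 1 of 3 starts, 29371 bp downstream, with densities of 7.69 and 3.94. Its principal starts at 0 and 18983 bp were both closed. At its open start the CpG ratio was 0.498, just under the limit of CpG-rich.

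Ldha, the lactate dehydrogenase A gene, was open at 10 of 12 starts, and the densest group began 4364 bp downstream with 8.63 in replicate 1 and 5.33 in replicate 2. Lpin1, a phosphatidate phosphatase, was open 21193 bp downstream at ranks of 96.2 and 95.9, where a principal transcript also begins, and the principal starts at 0 and 6853 bp were closed. Pfkm, the muscle phosphofructokinase, was open at 1 of 4 starts, a principal one at 15877 bp, with ranks of 84.6 and 88.2, and its principal starts at 0 and 55 bp were closed.

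Transcription regulators met the rule in 13 of 82 eligible genes (15.9%, beside 8.10%). Their eligible genes had a median of 5 annotated starts, beside a share of 9.38% among all eligible genes with 4 or 5 starts. Nr3c1, the glucocorticoid receptor, which has many alternative first exons, was open at 8 of 9 starts, with the highest mean rank 28120 bp downstream at 7.91 in replicate 1 and 5.22 in replicate 2. Tcf4 had 6.46 and 4.73 at the far start of highest mean rank, 250016 bp downstream. Tcf4 was also open nearer than 2 kb, between 790 and 1173 bp, where a principal transcript begins, with 7.92 in replicate 1 and 3.76 in replicate 2. Rara, the retinoic acid receptor alpha, was open 9880 bp downstream with densities of 4.28 and 3.45, and again 32594 bp downstream with 4.17 and 2.33. Rarb, the receptor beta, was open at its principal start 243613 bp downstream with 2.11 and 1.81, and both starts at the upstream end were closed. Nfib, a nuclear factor I protein, was open 199980 bp downstream at ranks of 86.2 and 86.3, and Hdac7, a class IIa histone deacetylase, 13008 bp downstream at 84.2 and 85.6. The other members were Runx2, Zfhx3, Sox6, Vdr, Runx3, Ppargc1a and Hdac9.

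Ligands, receptors and guidance factors met the rule in 5 of 39 eligible genes (12.8%, beside 8.10%). Their eligible genes had a median of 5 annotated starts, beside a share of 9.38% among all eligible genes with 4 or 5 starts. Igf2, a fetal and neonatal growth factor that is expressed from the paternal allele and uses several promoters, was closed at its most upstream start and open at 5 of 6 downstream starts. The start at 7327 bp had densities of 3.48 in replicate 1 and 1.79 in replicate 2, and the one at 10798 bp had 3.43 and 2.32. Its most upstream start is a principal one, and the principal starts at 9320 and 9350 bp shared a weaker peak, with 1.28 and 1.00. The principal start at 5511 bp had 1.30 and 0.810. Alleles were not separated in the files, so the values of Igf2 and of the imprinted Mest are sums over both alleles.

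Lifr was open at a principal start 38945 bp downstream, with densities of 8.01 in replicate 1 and 4.07 in replicate 2. A weaker opening at another principal start, 63739 bp downstream, had 2.36 and 1.45, and the 2 starts near 49928 bp, 1 of them principal, had no peak. Fgfr1, a fibroblast growth factor receptor, was open 5105 bp downstream at ranks of 91.3 and 92.0. Robo1, a receptor for Slit guidance cues, was open 354843 bp downstream at 80.1 and 86.0, and Sema3a, a secreted repellent of axons, 2540 bp downstream at 51.0 and 68.0. Sema3a had the widest gap between the libraries among the named ligands and receptors.

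Genes long known for alternative promoters met the rule in 12 of 46 eligible cases (26.1%, beside 8.10%). These eligible genes had a median of 6 annotated starts, and 13.5% of all eligible genes with 6 to 9 starts met the rule. Among the 12 were Nr3c1, Acacb, Macf1, Rara, Mest, Igf2, Grb10, Pde4d, Rarb, Cacna1c and Ppargc1a. Several of them, such as Nr3c1, Acacb, Macf1, Rara and Igf2, are also counted in other lists. Mest, an imprinted gene of the hydrolase family, was open 14503 bp downstream with densities of 5.10 in replicate 1 and 2.59 in replicate 2, and 4 starts in the first 9959 bp were closed. Pde4d was open at 7 of 11 downstream starts in both libraries. Its principal starts at 0 and 205989 bp had no peak.

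**Figure D5:**
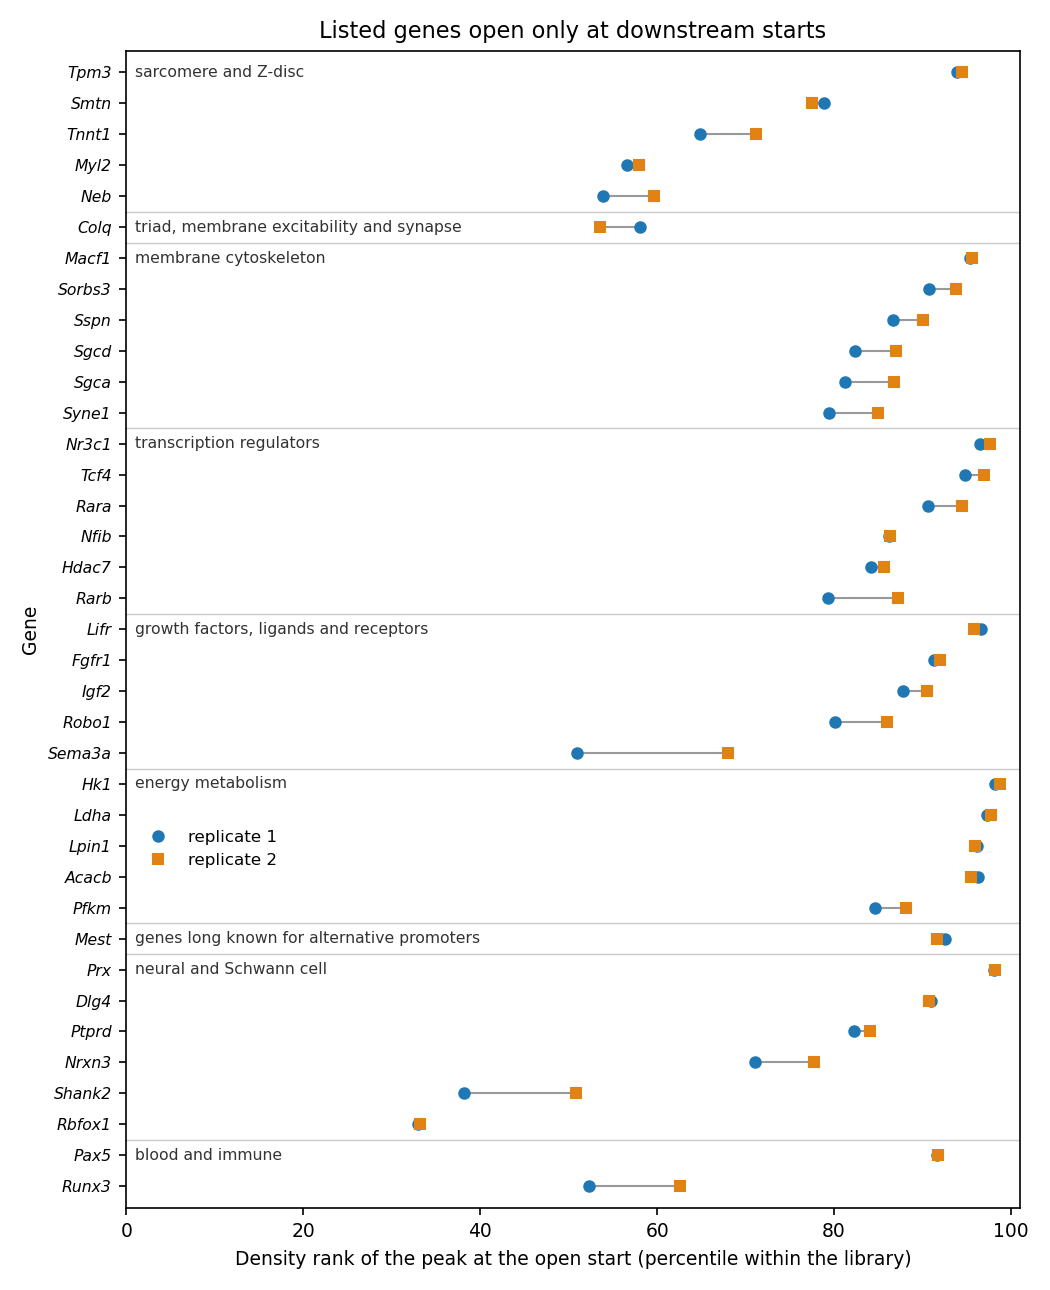
Density rank of the peak at the open start (horizontal, percentile within the library) for genes of the lists, at most 6 per list and each gene once, with a circle for replicate 1, a square for replicate 2 and a line joining them. Hk1 and Prx lie at the right edge with ranks over 98, and Shank2 and Rbfox1 lie lowest.

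Genes of other cell types in muscle were found as well. Of 33 eligible neural and Schwann cell genes, 6 met the rule (18.2%, beside 8.10%). The 33 genes had a median of 6 annotated starts, and 13.5% of all eligible genes with 6 to 9 starts met the rule. Prx, the myelin protein periaxin of Schwann cells, had its 2 starts near 8482 bp open with densities of 9.73 in replicate 1 and 5.73 in replicate 2, while the principal start upstream was closed. That open start lies within 500 bp of a start of Gm15541, so the peak cannot be assigned to Prx alone, and 2 of the 4 Schwann cell markers, Sox10 among them, had no open start. Dlg4, the postsynaptic scaffold PSD-95, was open at ranks of 91.0 and 90.7, and also at its principal start 1502 bp from the upstream one at 76.5 and 77.4. Ptprd had ranks of 82.3 and 84.1. Nrxn3 had ranks of 71.1 and 77.8, Shank2, another postsynaptic scaffold, 38.2 and 50.8, and Rbfox1 32.9 and 33.2.

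Of 13 eligible blood and immune genes, with a median of 3 annotated starts, 2 met the rule (15.4%, beside 8.10%). Pax5, the B cell factor with 2 known promoters, was open 6481 bp downstream at a CpG-rich start with densities of 4.71 in replicate 1 and 2.62 in replicate 2. Its upstream start had no peak and a CpG ratio of 0.68, but with a GC content of 47.2% it was not CpG-rich. Runx3, which has a distal and a proximal promoter, was open at the proximal one, 31844 bp downstream, at ranks of 52.3 and 62.6. None of 21 eligible extracellular matrix and connective tissue genes met the rule, beside 8.10% of all, and this count was not tested. These 21 genes had a median of 3 annotated starts, and 6.47% of all eligible genes with 3 starts met the rule. Of the 21, 17 were open at the upstream start without a downstream start open in both libraries and 4 at both.

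Short motifs were counted on both strands from 250 bases before to 50 bases after each start. GGGCGG, the core of the GC box bound by Sp1-type factors, was present at 313 of 520 open starts (60.2%) and 52 of 520 closed upstream starts, beside 43.5% of all protein-coding starts. TATAAA was present at 5.58% of open and 13.7% of closed starts, beside 11.3% of all. CCAAT was present at 28.1% and 36.7%, beside 35.6%. Base composition differed between the starts as given above, and its part in these contrasts was not tested. A match is not a binding site.

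The E-box CAGCTG, which myogenic factors can bind, was present at 107 open starts (20.6%) and 99 closed upstream starts, beside 16.0% of all starts. GGAATG, a core bound by TEAD factors, was present at 12.5% and 17.3%, beside 13.0%, and TGACTCA, bound by AP-1, at 3.46% and 6.15%, beside 4.26%. CACGTG was present at 9.62% and 4.04%, beside 7.47%, and TGACGTCA, bound by CREB, at 2.12% and 0.385%, beside 2.06%. The palindromic NRF1 motif was found at 4 open starts (0.769%) and at 0 closed ones, beside 1.16% of all.

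Genes at the edges of the rule show how fine its limits are. Sox6 and Syne1 were taken with the nearest peak 503 and 522 bp from the upstream start, whereas Rpl3 and Tmem63b were left out with a peak at 488 and 485 bp. Snrpc and Kcne3 had their open start 2005 and 2009 bp downstream, against 1994 bp in Rab17 and 1977 bp in Wtap, which were left out. Olfr94 and Ankrd36 were taken with a peak 491 and 463 bp from the downstream start, and Csrp3 and Rgsl1 missed with 502 and 504 bp.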

How the data were processed

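DNase-seq of 2 gastrocnemius libraries was used as deposited, on mm10 per the labels. The deposited peak lists give the authors' cut density, a signal scaled within each library, whose unit and depth in reads are not stated, so no counting interval is given. The deposited FDR lists give q-values for stretches of bases, of which those with an FDR below 0.05 were merged. The deposited footprint lists carry 1 constant (0.01), another value with no stated meaning. The names of the aligner and callers, not given in the sources used here, were not assumed. Lists were called on each library by itself.

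Starts came from protein-coding transcripts of GENCODE M21 and sequence from GRCm38.p6. Counts, shares, medians and percentile ranks were computed with Python 3.11.15, numpy 2.4.6 and pandas 2.3.3, and the classification was tested on simulated data. A peak counted where it touched the window of 500 bp on either side. With 1 group and genes chosen by the peaks, no test was run, and genes are not replicates. The members and gene lists were chosen with earlier results of these data known. Named are the 20 densest open starts, up to 6 genes per list, the 5 longest distances and the 2 genes on each side of each limit. Some items are not reported here. Alternatives changed windows, distances, peak lists, transcripts, the CpG limits and the libraries used.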

Additional observations from a re-analysis of the deposited data

How the results depend on the processing

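The number of genes open only downstream was 520, and it was 318 with transcripts tagged basic alone, of which 313 were among the 520, and 230 with support levels 1 and 2 alone, of which 215 were. In the other alternatives it stayed within 1.5 times, and leaving out a replicate gave 614 and 627. The share with a CpG-rich open start and an upstream start that was not fell to 50.8% with a CpG ratio of at least 0.6 and GC of at least 55%, against 64.6%, and was 57.8% to 60.1% with 1 replicate left out. The median mean rank of 86.4 was 81.4 with the shorter peak lists, where ranks come from shorter lists. It was 89.3 with the strongest 50% of peaks, which kept their ranks from the full lists, so lower ranks were absent. With 1 replicate left out, the rank in the other library had a median of 82.7 to 85.2. The share with footprints in both libraries was 95.8%. It was 88.9% with a peak window of 1 kb, where footprints were still counted within 500 bp of the start. It was 98.3% with the shorter lists, 97.6% with the strongest 50% of peaks, 89.5% with FDR stretches and 92.2% with support levels 1 and 2. With 1 replicate left out, footprints were counted in the other library only, and the share was 92.5% to 97.4%. The median distance was 7049 bp with a minimum of 1 kb and 17409 bp with 5 kb, which the minimum itself sets, and 10094 to 10308 bp with 1 replicate left out. A different coding start was found in 49.1% with basic transcripts and 50% with support levels 1 and 2, against 42.2%, and in 41.3% to 44.7% with 1 replicate left out. FDR stretches carry no density, so they gave no rank. Apart from what the settings themselves fix, the cause of these shifts was not tested. No paired analysis was possible because there is only 1 group. With 2 libraries of unknown depth, a start without a peak is one where none was called, not one shown to be closed in every cell.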
